A study of Caenorhabditis elegans with 6 samples.

Results

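The genes described here are the 8 Caenorhabditis elegans genes nlp-27 to nlp-34, which encode the antimicrobial peptides of the nlp (neuropeptide-like protein) family made by the epidermis. They were found by symbol among the 46778 gene identifiers of the expression table, and all 8 had a row of their own. RNA-seq had been run on 6 libraries, 3 from Control animals and 3 from animals given HLB01, an agent known here only by that code name. The series title names root extract from the plant Vicatia thibetica and speaks of ageing, of collagen and of resistance to stress. The titles name all 3 treated libraries HLB01 and the design text speaks of triplicates, but the agent field reads HLB01, HLB02 and HLB03 for replicates 1, 2 and 3, so the grouping rests on the titles. The sources used here give no strain, genotype, stage, dose or length of treatment, and they do not say whether replicates were separate cultures. The p-values therefore measure the spread between these samples only.

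The nlp peptides are short, secreted and rich in glycine and aromatic residues. Work in worms has shown that nlp-29 and its neighbours are switched on in the epidermis when the fungus Drechmeria coniospora pierces the cuticle, when the skin is wounded and, for nlp-29, when the medium is hyperosmotic. The infection signal runs from the receptor DCAR-1 through a G protein and protein kinase C to the adaptor TIR-1 and a p38 kinase cascade that ends at PMK-1, and from there to the STAT-like factor STA-2, the transporter SNF-12 and the GATA factor ELT-3. NLP-29 also acts on neurons through the receptor NPR-12, where it has been tied to the loss of dendrites with age and to sleep after injury.

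In these libraries 5 of the genes were strongly expressed, 2 were weak and 1 was near the limit of the table. Levels are in TPM, a transcript abundance scaled for length and to a fixed library total, which is meant for setting genes side by side. The members are short, at 264 to 714 bp, and related. Their order therefore rests on that scaling and on the authors' assignment of reads. The highest was nlp-27, with a mean over the 6 libraries of 403 TPM, above 97.4% of the 12590 genes that reached 1 TPM in at least 3 libraries. It was followed by nlp-34 at 321 TPM, which was lower than nlp-27 in 6 of 6 libraries although the ranges of the 2 genes overlapped. The genes nlp-31 and nlp-29 came next, each with a mean of 132 TPM, and either one was the higher in 3 of 6 libraries, so their order was not resolved. At 95.3 TPM nlp-28 lay below both in all libraries, without overlap with nlp-29. The remaining steps were wide. The gene nlp-33 had 11.1 TPM, nlp-30 had 1.70 TPM, and nlp-32 was below 1 TPM in every library and was not tested.

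Of the 8 genes, 6 lie side by side on chromosome V of WBcel235 between positions 3978825 and 3989770, a stretch of 10.95 kb that holds no other annotated gene. From left to right these are nlp-34 (WBGene00015046), nlp-31 (WBGene00003769), nlp-30 (WBGene00003768), nlp-29 (WBGene00003767), nlp-28 (WBGene00003766) and nlp-27 (WBGene00003765). Only nlp-34 is on the minus strand, so that it and nlp-31 point away from each other across 920 bp. The widest gap, 3052 bp, separates nlp-29 from nlp-28, and nlp-28 and nlp-27 are 1061 bp apart. The gene nlp-33 (WBGene00003771) is further along chromosome V, at positions 11147346 to 11147737, and nlp-32 (WBGene00003770) is on chromosome III, at 486114 to 486547. Each of the 8 is annotated with 1 transcript of 2 exons and 264 to 714 bp, and none overlaps another gene. The chemoreceptor gene str-83 ends 13 bp from nlp-34 on the other strand, and it reached at most 0.05 TPM in any library. Within the cluster the level neither rose nor fell steadily along the chromosome, since nlp-30, at under 3 TPM, sits between nlp-31 and nlp-29.

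**Figure D1:**
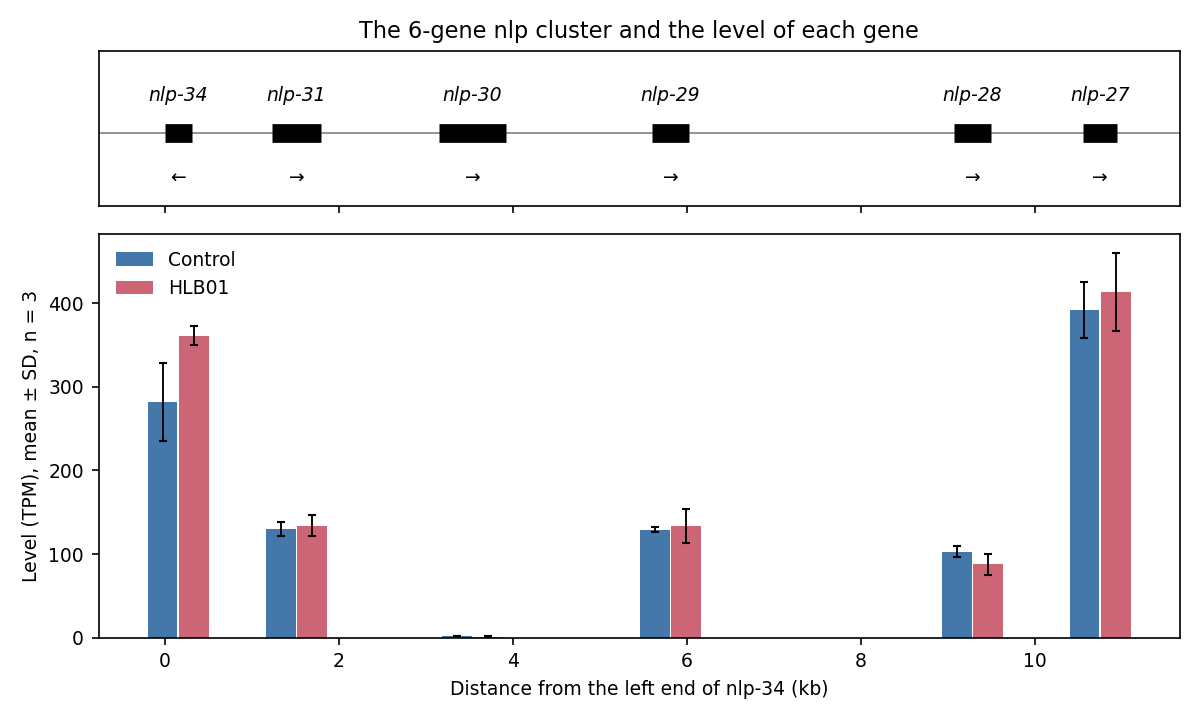
Top, the 6 clustered nlp genes by distance in kb from the left end of nlp-34, with arrows for the direction of transcription; bottom, the level of each gene in TPM, bars being the mean and error bars the SD of 3 libraries. The genes at the 2 ends, nlp-34 and nlp-27, were the highest, and nlp-30, in the middle, is barely visible at 1.94 TPM in Control and 1.46 TPM with HLB01.

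The comparison of HLB01 with Control asks whether treated animals carried more or less of the transcripts. In limma with a mean-variance trend on log2(TPM + 1), none of the 7 tested nlp genes changed at a Benjamini-Hochberg adjusted p below 0.05 over all tested genes. The background was 0.397% of tested genes, or 50 of 12590. At an unadjusted p below 0.05 limma counted 1 of the 7, beside 8.32% of all tested genes. Of the 7 log2 fold changes 4 were positive and 3 negative, with a median of 0.04, and the median over all tested genes was -0.00. The groups did not overlap for 2 of the 7 genes, nlp-34 and nlp-28, beside 13.8% of all tested genes. That background was 6.85% with HLB01 higher, the direction of nlp-34, and 6.99% with HLB01 lower, the direction of nlp-28. The summed TPM of all 8 genes was 1062, 1132 and 956 in the Control libraries and 1181, 1201 and 1046 in the HLB01 libraries, and the groups overlapped. In bulk RNA, fewer epidermal cells and less transcript per cell cannot be told apart.

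**Figure D2:**
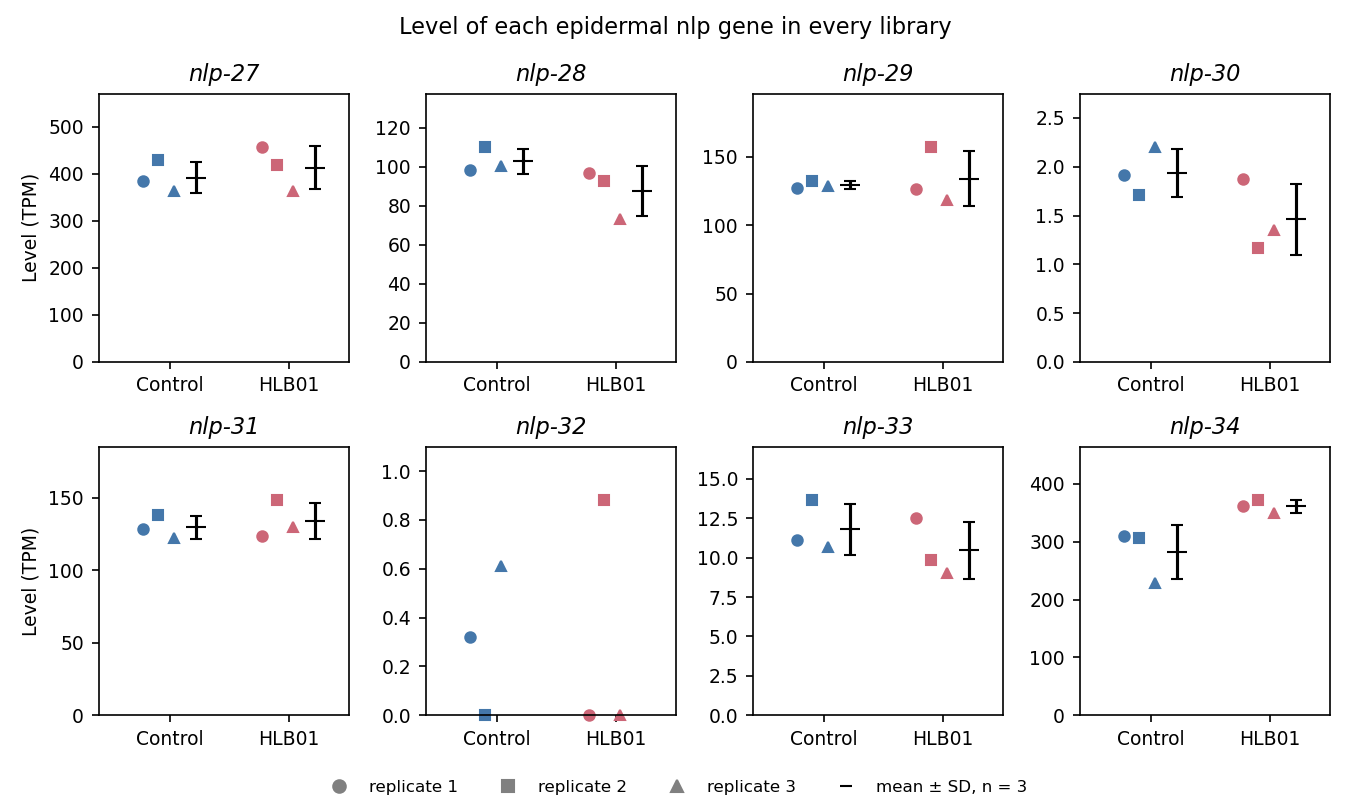
Level in TPM of each of the 8 genes in each of the 6 libraries, with the mean and SD of each group of 3 beside the points, except for nlp-32, which is listed at 0 in 3 libraries. The groups are apart for nlp-34, higher in HLB01, and narrowly for nlp-28, lower in HLB01, and overlap for the other genes.

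The gene nlp-29, the usual marker of the epidermal response to fungus and wounds, stood at 127, 133 and 128 TPM in Control replicates 1, 2 and 3. In HLB01 replicates 1, 2 and 3 it stood at 127, 157 and 118.5 TPM. The Control libraries lay close together, and the HLB01 libraries lay on both sides of them, with the highest and the lowest value of all. The means were 129 ± 2.89 TPM and 134 ± 20.3 TPM (SD, n = 3 each), and the log2 fold change was 0.04 ± 0.10 (SE; limma adjusted p = 0.944). Its 95% interval ran from -0.19 to 0.27, that is from 0.876-fold to 1.21-fold on the TPM + 1 scale. Without HLB01 replicate 2 the log2 fold change was -0.08.

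The gene nlp-31, whose peptide has been shown to inhibit microbes in culture, stood at much the same level as nlp-29. It had 128, 138 and 122.3 TPM in the 3 Controls and 124, 148 and 130 TPM in the 3 treated libraries. The groups overlapped, and HLB01 replicate 2 was again the highest. The log2 fold change was 0.05 ± 0.08 (SE; limma adjusted p = 0.914), with a 95% interval from -0.14 to 0.23, and it was -0.03 without HLB01 replicate 2. The ratio of nlp-31 to nlp-29 was 1.002 ± 0.0464 in Control and 1.007 ± 0.0805 in HLB01 (SD, n = 3 each), so the 2 genes kept the same proportion in both groups to within that spread.

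The most abundant gene, nlp-27, had 385, 428 and 363 TPM in the Control libraries. It had 456, 419 and 364 TPM in the 3 treated libraries. The highest value was in HLB01 replicate 1, and the groups overlapped over most of their range. The log2 fold change was 0.07 ± 0.09 (SE; limma adjusted p = 0.881), with a 95% interval from -0.15 to 0.29, and it was -0.00 without HLB01 replicate 1.

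The gene nlp-34, at the left end of the cluster on the opposite strand, had 309.9, 307 and 228 TPM in the Control libraries. It had 362, 371 and 349.6 TPM in the 3 treated libraries. All 3 HLB01 libraries were above all 3 Control libraries, and Control replicate 3 was well below the other two. The means were 282 ± 46.4 TPM and 361 ± 10.97 TPM (SD, n = 3 each), a 28.2% higher mean in HLB01. The log2 fold change was 0.37 ± 0.11 (SE) with a 95% interval from 0.10 to 0.64, and it did not pass the correction over all genes (limma adjusted p = 0.385, limma unadjusted p = 0.0139). A log2 difference of 0.80 would have been needed for this gene to pass. Without Control replicate 3 the log2 fold change was 0.23.

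The gene nlp-28 went the other way. It had 98.3, 110.1 and 100.3 TPM in the 3 Controls and 97.0, 92.9 and 73.3 TPM in the 3 treated libraries. The groups were separated by the narrow gap between Control replicate 1 and HLB01 replicate 1, and HLB01 replicate 3 was the lowest. The log2 fold change was -0.24 ± 0.11 (SE; limma adjusted p = 0.619), with a 95% interval from -0.49 to 0.01. Without HLB01 replicate 3 it was -0.11.

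The weaker members did not pass either. The gene nlp-33 had 11.1, 13.6 and 10.7 TPM in the 3 Controls and 12.5, 9.87 and 9 TPM in the 3 treated libraries, which overlapped (log2 fold change -0.16 ± 0.14, SE; limma adjusted p = 0.822). The gene nlp-30 had 1.91, 1.71 and 2.20 TPM in Control and 1.87, 1.17 and 1.35 TPM with HLB01, with 1 HLB01 library inside the Control range (log2 fold change -0.26 ± 0.15, SE; limma adjusted p = 0.719). At this level the added pseudocount of 1 shrinks fold changes, and the ratio of the mean TPM was 0.754. The gene nlp-32 was listed at 0.32, 0 and 0.61 TPM in Control and at 0, 0.88 and 0 TPM with HLB01. It showed no more than traces in either group, and no fold is given for it. TPM keeps no read counts, so the number of fragments behind these low values is unknown.

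The SE of the fit set how small a change could be seen. It rests on the spread between replicates and on the mean-variance trend with level. To pass the correction over all genes, a log2 difference of at least 0.54 would have been needed for nlp-31, 0.65 for nlp-27 and 0.68 for nlp-29. The weaker genes nlp-33 and nlp-30 would have needed 0.98 and 1.04. The residual SD on the log2 scale ran from 0.11 for nlp-31 to 0.20 for nlp-33, with a median of 0.16 over the 7 genes and of 0.11 over all tested genes. The 95% intervals of nlp-27, nlp-29 and nlp-31 lay between -0.19 and 0.29, short of the differences they would have needed.

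**Figure D3:**
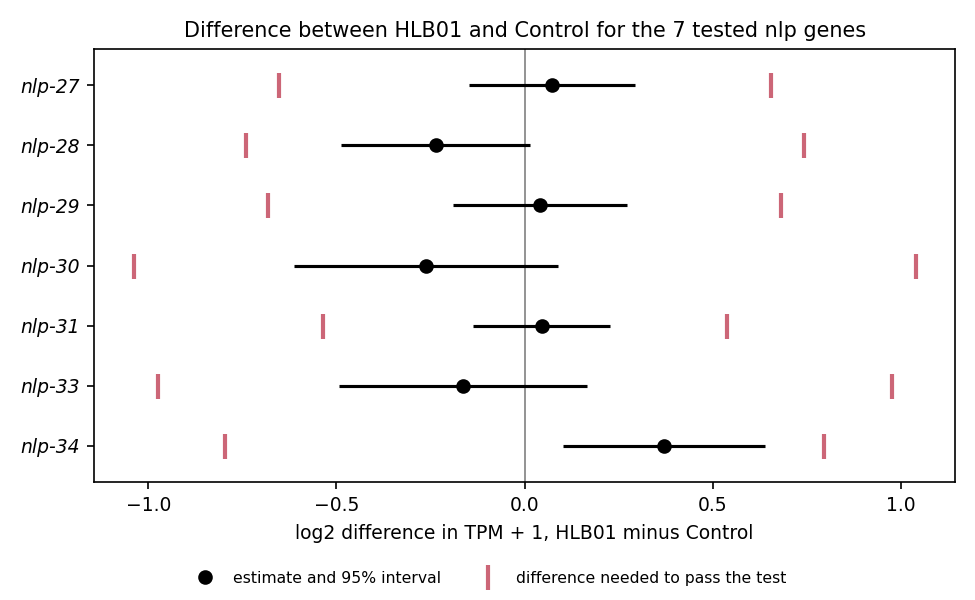
Difference between HLB01 and Control in log2(TPM + 1) for the 7 tested genes, with the limma estimate as a point and its 95% interval as a line; red ticks mark the difference each gene would have needed to pass the test over all genes. The interval of nlp-34, from 0.10 to 0.64, lies above 0 but its estimate is short of the tick at 0.80, and the other 6 intervals include 0.

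The make-up of the cluster was compared after the values of its members had been seen, so it is given as a description with no test. In share of the summed TPM of the 6 clustered genes, nlp-34 held 29.5%, 27.5% and 24.2% in the Control libraries and 31.03%, 31.2% and 33.7% in the HLB01 libraries. The share of nlp-28 was 9.36%, 9.84% and 10.6% in Control and 8.30%, 7.80% and 7.07% in HLB01. Neither share overlapped between the groups, one being higher and the other lower in HLB01, and the shares of the other 4 genes overlapped. Shares within a fixed sum are tied to each other, so a higher share of 1 gene lowers the rest. The neighbours nlp-27 and nlp-28 stood at a TPM ratio of 3.91, 3.89 and 3.62 in Control and 4.71, 4.52 and 4.97 in HLB01. Of the 15 pairs of clustered genes, 5 had ratios that did not overlap between the groups. All 5 involved nlp-28 or nlp-34, the genes already seen apart in opposite directions, so this count restates those differences. No share over other gene pairs was computed to set beside it. The members have related, repetitive sequences, so how reads were divided between them rests on the authors' assignment and is uncertain.

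**Figure D4:**
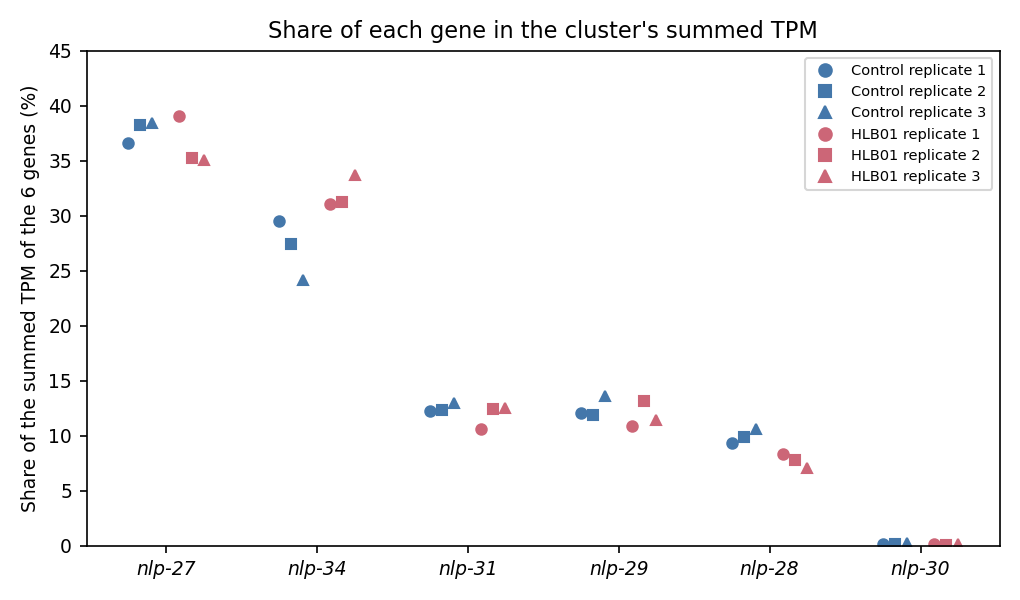
Share in percent of each clustered gene in the summed TPM of the 6 genes, with 1 point for each library. The HLB01 points lie above the Control points for nlp-34 and below them for nlp-28, and the 2 groups overlap for the other 4 genes.

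The libraries ordered the members in different ways. On the log2 scale, HLB01 replicate 2 had the highest value of nlp-29, nlp-31 and nlp-34 and the lowest of nlp-30. HLB01 replicate 3 had the lowest value of nlp-28, nlp-29 and nlp-33, and Control replicate 3 had the lowest of nlp-27, nlp-31 and nlp-34. HLB01 replicate 3 also stood apart over all genes, where the first principal component (31.3% of the variance) put it at 32.01 and the other 5 libraries at -15.3 to -0.57. Ribosomal RNA was highest there too, at 4895 TPM against 530 to 2684 TPM. Without that library the log2 fold changes were 0.16 for nlp-27, 0.12 for nlp-29, 0.07 for nlp-31 and 0.39 for nlp-34, and -0.23 for nlp-30 and -0.07 for nlp-33, and none of the 7 passed. The part of RNA quality or of this library in the values was not tested.

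To find genes that varied like nlp-29, each of the other 12583 tested genes outside the family was scored by its mean absolute difference from nlp-29 over the 6 libraries, both expressed as deviations from their own mean in log2(TPM + 1). A gene with no variation at all would score 0.09 log2 units. The closest was bli-3, which encodes the dual oxidase of the epidermis, with a score of 0.03 and levels of 2.11, 2.25 and 2.12 TPM in Control and 2.13, 2.58 and 1.98 TPM with HLB01. At this low level the added pseudocount of 1 shrinks the deviations of bli-3, which it hardly does for nlp-29. The next were anp-1, F17E5.2, tns-1 and pad-2, each with a score of 0.04. All 5 had their highest value in HLB01 replicate 2, as nlp-29 did, which largely follows from choosing them for likeness to it. Of the family, nlp-31 was the nearest to nlp-29 with a score of 0.07, nlp-27 had 0.11, and the others had 0.17 to 0.20, above the median of 0.13 over all genes compared. Placed among the genes outside the family, nlp-31 would have ranked 187. Of those genes, 1575 scored below a gene with no variation. With 6 libraries and so many genes these scores describe the libraries only.

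The genes that act around the peptides were read from 12 lists of 108 genes, of which 69 were tested. Of those, 0 rose and 1 fell over all tested genes, beside a background of 0.167% higher and 0.23% lower. The gene that fell was cnc-2, given below. Of the 69 tested, 9 did not overlap between the groups, beside 13.8% of all tested genes. In HLB01, sta-2, ceh-18 and gpdh-1 were the higher of these, and nlp-24, cnc-2, cnc-7, elt-1, vab-19 and sma-3 the lower. Genes below the filter are not part of these shares, and no such share was computed for them.

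No tested gene of the infection pathway upstream of the peptides passed. Of the 6 tested genes from the receptor to protein kinase C, 3 had a positive and 3 a negative log2 fold change (median 0.00), and the smallest p was that of the scaffold gene rack-1 (log2 fold change -0.05 ± 0.04, SE; limma adjusted p = 0.812). The receptor gene dcar-1 had 14.3 ± 0.943 TPM in Control and 14.4 ± 1.41 TPM with HLB01 (SD, n = 3 each; limma adjusted p = 0.981). In the p38 cassette 4 of 5 genes had a negative value (median -0.11). Its adaptor gene tir-1 had 53.6 ± 3.80 and 48.6 ± 4.36 TPM (limma adjusted p = 0.727), its middle kinase gene sek-1 had 15.7 ± 1.54 and 15.99 ± 2.51 TPM (limma adjusted p = 0.98), and the p38 kinase gene pmk-1 had 12.7 ± 1.19 and 12.6 ± 1.18 TPM (limma adjusted p = 0.986). These are transcript levels, whereas the cascade works by phosphorylation, which was not measured.

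Among 6 tested genes of the transcription module, none passed (median log2 fold change 0.02). The GATA factor gene elt-3 had 11.5 ± 0.0208 TPM in Control and 11.9 ± 0.858 TPM with HLB01 (SD, n = 3 each; limma adjusted p = 0.914). The gene elt-1, which encodes the GATA factor that specifies the epidermis, had 8.29 ± 0.888 and 6.55 ± 0.528 TPM, without overlap (log2 fold change -0.30 ± 0.11, SE; limma adjusted p = 0.508). The gene sta-2 had 2.11, 2.12 and 2.12 TPM in Control and 2.49, 2.53 and 2.15 TPM with HLB01, likewise without overlap (limma adjusted p = 0.836). With ceh-18, a homeobox gene at 2.44 to 2.66 TPM in Control and 2.75 to 3.40 TPM with HLB01 (limma adjusted p = 0.737), 3 of the 6 did not overlap, 1 lower and 2 higher in HLB01, beside 13.8% of all tested genes in either direction. The transporter gene snf-12 was below the filter and not tested, at 0.38, 0.35 and 0.36 TPM in Control and 0.64, 0.74 and 0.55 TPM with HLB01. Its HLB01 values were all above its Control values, at a level under 1 TPM.

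The lists of negative regulation and the osmotic branch, of furrow collagens and of hemidesmosomes gave no passing gene either. In the list of negative regulators and the osmotic branch, 4 of 7 tested genes had a positive value and the median was 0.00. The glycerol-3-phosphate dehydrogenase gene gpdh-1, which makes glycerol under osmotic stress and was the smallest p of that list, had 7.81, 7.04 and 8.11 TPM in Control. It had 11.5, 9.80 and 13.2 TPM with HLB01. The groups were apart, and the test did not pass (log2 fold change 0.52 ± 0.12, SE; limma adjusted p = 0.197). Of the furrow collagens, whose loss turns nlp-29 on, 2 of 6 were tested, both with negative values, and dpy-9 had the smaller p (1.69 ± 0.301 and 1.46 ± 0.327 TPM; limma adjusted p = 0.87). Of the 4 below the filter, dpy-2 (0.94 to 1.34 and 0.50 to 0.86 TPM) and dpy-7 (0.43 to 0.60 and 0.04 to 0.30 TPM) were lower in all HLB01 libraries, and dpy-3 and dpy-8 overlapped. Of the hemidesmosome genes, which anchor the epidermis to muscle and cuticle, 6 were tested, with a median of 0.01, and the smallest p was that of vab-19 (5.14 ± 0.406 and 4.56 ± 0.205 TPM; limma adjusted p = 0.784).

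For the 8 tested genes that cut and amidate propeptides, the median log2 fold change was -0.04. Among them the smallest p was that of the amidation gene pamn-1 (6.74 ± 0.495 and 6.01 ± 0.484 TPM, limma adjusted p = 0.784). The neuronal receptor gene npr-12 was below the filter at 0.81, 0.65 and 0.77 TPM in Control and 0.86, 0.55 and 0.99 TPM with HLB01. So was nas-38, an astacin protease gene tied to the sleep that these peptides promote, at 0.12 to 0.24 TPM in Control and 0.13 to 0.39 TPM with HLB01. Both overlapped between the groups.

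Other antimicrobial peptide genes were set beside the nlp genes. Of the related nlp-24, nlp-25 and nlp-26, 2 were tested, and nlp-24 had 13.7, 16 and 12.6 TPM in Control and 11.6, 10.9 and 11.2 TPM with HLB01. Its HLB01 values were all lower, as for nlp-28, and it did not pass (log2 fold change -0.30 ± 0.10, SE; limma adjusted p = 0.433). Of 36 genes for fungus-induced proteins found in the table, 11 were tested and none passed (median 0.07), with the smallest p for fipr-22 (30.9 ± 0.706 and 34.1 ± 2.59 TPM; limma adjusted p = 0.669).

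The caenacins are antimicrobial peptides of another family, and their epidermal member cnc-2 is known to be under the control of the TGF-beta ligand DBL-1. Of 9 tested, 1 fell and none rose (median -0.06), beside 0.23% lower and 0.167% higher over all tested genes. The gene that fell, cnc-2, had 30.7, 26.9 and 31.8 TPM in Control and 16.1, 12.6 and 13.9 TPM with HLB01 (log2 fold change -1.02 ± 0.10, SE; limma adjusted p = 0.0156). All 3 HLB01 values were far below the Control values. The call was lost without Control replicate 1, Control replicate 3 or HLB01 replicate 3 (limma adjusted p = 0.067, 0.0676 and 0.0531), where the log2 fold change was -1.002, -0.98 and -1.02. Of the 7 tested genes of the DBL-1 pathway none passed (median -0.05), and the smallest p was that of the Smad gene sma-3 (6.61 ± 0.204 and 5.55 ± 0.541 TPM; limma adjusted p = 0.617).

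**Figure D5:**
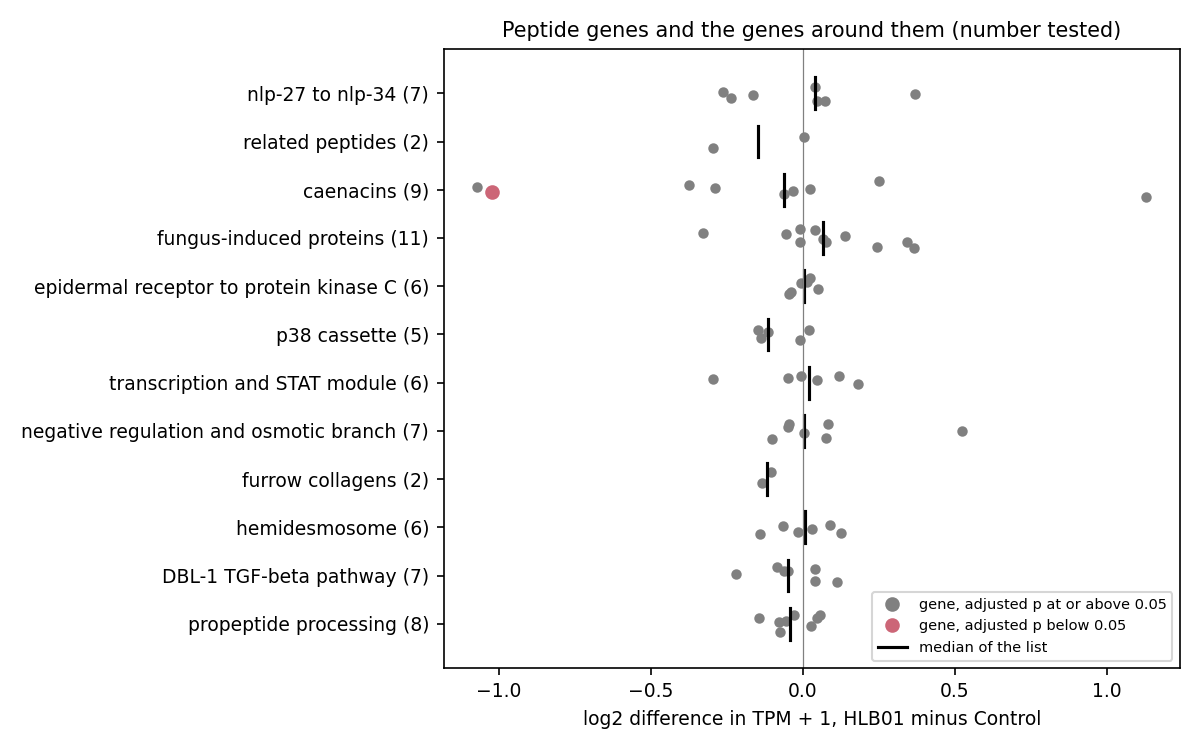
Difference between HLB01 and Control in log2(TPM + 1) for each tested gene of the nlp family and of 11 lists of related genes (the list of npr-12 and nas-38 had none tested), with black ticks at the list medians and the number tested in brackets. The red point, cnc-2 at -1.02, is the 1 gene that passed; the 7 nlp genes lie between -0.26 and 0.37.

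Epidermal tissue was present in all libraries by its markers. Of 14 epidermal markers 9 were tested and none passed (median log2 fold change -0.08). Their summed level was 233 to 238 TPM in Control and 233 to 243 TPM with HLB01. Most of it came from lin-26 and the adult collagen gene col-19. Those not tested, che-14, mlt-11, dpy-7, rol-6 and bli-1, were below 1 TPM in every library, and bli-1 reached at most 0.05 TPM. Of the 9 tested, 6 had a negative log2 fold change, and the 2 without overlap, elt-1 and nhr-25 (1.15 to 1.65 and 0.96 to 1.11 TPM), were both lower in HLB01. Over all tested genes the share without overlap was 13.8%, with 6.85% higher and 6.99% lower in HLB01. Markers of other tissues were there as well, as in whole animals. The summed level was 3542 to 3916 and 2991 to 3444 TPM for intestine, 613 to 644 and 518 to 684 TPM for body wall muscle, 393 to 414 and 369 to 403 TPM for neurons, 43.0 to 51.1 and 43.5 to 55.7 TPM for pharynx, 5082 to 5406 and 5024 to 5387 TPM for germline and oocytes, and 52.7 to 60.3 and 47.0 to 68.7 TPM for sperm, in Control and HLB01. Coelomocyte markers stayed below 1 TPM in sum. Of the 8 tested body wall muscle markers 7 had a negative and 1 a positive log2 fold change (median -0.19), and the groups overlapped for each. The intestinal sums did not overlap, but most of each sum is 1 gene, asp-1, at 2898 to 3244 TPM in Control and 2375 to 2827 TPM with HLB01. Of the 10 intestinal markers 5 did not overlap between the groups, beside the same 13.8% of all tested genes. Lower in HLB01 were asp-1, act-5 and cpr-1, and higher were vha-6 (80.5 to 87.8 and 92.3 to 100.7 TPM) and pept-1 (7.65 to 8.40 and 8.60 to 9.87 TPM). None of the marker genes tested passed over all genes. The part of tissue proportions in the nlp values was not tested.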

How the data were processed

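Total RNA was purified with TRIzol and DNase I and made into Illumina libraries, per the labels' protocols. The tools named in the submitters' processing notes are HISAT, RSEM and fastp, and the build is WBcel235; the sources used here give no version, annotation release, filter or strand setting. The authors deposited TPM values for 46778 genes in 1 column per library, each column summing to 996559 to 997388, so depth is unknown. A rise in abundant transcripts lowers the TPM of all others.

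Values were tested as log2(TPM + 1) with limma 3.58.1 in R 4.3.3, using a mean-variance trend. The 12590 genes that reached 1 TPM in 3 or more libraries entered the fit. Two-sided p-values were adjusted by Benjamini-Hochberg over all of these, and the threshold was 0.05. The fit was tested on simulated data. Positions came from the Ensembl WBcel235 annotation, and 43818 identifiers had a symbol; 106 of 108 listed genes were found.

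The members and lists were chosen with earlier results of these data known. The text names all 8 members; of each list the genes that passed or, failing that, the smallest p; 9 pathway genes whatever their test; and the 5 genes most like nlp-29. Markers named in the last paragraph, ceh-18, cnc-7, dpy-2, dpy-7 and the ratios within the cluster were chosen after their values were seen. Alternatives were other pseudocounts, filters, scalings and models, a replicate block and leaving out each library.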

Additional observations from a re-analysis of the deposited data

How the results depend on the processing

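None of the nlp genes passed under any of the 16 alternatives run (15 for nlp-30, which a filter of 5 TPM removes), with limma adjusted p of 0.216 to 0.636 for nlp-34 and 0.464 to 0.861 for nlp-28. The log2 fold change of nlp-34 stayed positive throughout and those of nlp-28, nlp-30 and nlp-33 stayed negative. Leaving out 1 library gave 0.23 to 0.45 for nlp-34, -0.31 to -0.11 for nlp-28, -0.38 to -0.18 for nlp-30 and -0.29 to -0.06 for nlp-33. It turned the sign of 3 genes, with ranges of -0.0016 to 0.16 for nlp-27 (negative without HLB01 replicate 1), -0.0777 to 0.12 for nlp-29 and -0.0285 to 0.10 for nlp-31 (both negative without HLB01 replicate 2). The count of changed genes over the whole table, 50, was 27 without the trend, 80 with array weights, 22 with no filter on low values and 19 to 32 when 1 library was left out; the cause was not tested. The scalings shifted the median of all genes by at most 0.01. Replicate numbers showed no clear pairing over all genes. The deviations of same-numbered libraries from their group means correlated at -0.013, 0.038 and 0.127. Not every library correlated best with its own number (Control replicate 1, Control replicate 2 and HLB01 replicate 1 did not). With 3 libraries in each group, these values cannot decide whether same-numbered samples shared a culture or batch. A fit with the replicate number as a block called 48 genes and none of the nlp genes (nlp-34 limma adjusted p = 0.216). The block lowered the SE of nlp-34 from 0.1143 to 0.0801 (limma unadjusted p = 0.00422). It also lowered the SE of nlp-27, nlp-28, nlp-29, nlp-31 and nlp-33, and raised that of nlp-30 from 0.1492 to 0.152. Low values limit nlp-30 and nlp-32 most.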
